A study of Mus musculus with 19 samples.

Results

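The response of the suprarenal abdominal aorta to angiotensin II (Ang II) was examined in mice whose smooth muscle cells lack IKKβ, by comparing the 5 Ang II-treated with the 4 saline-infused IKKβ-/- mice, 9 of the 19 mice sequenced. The mice carried the labels IKKb knockout with Angiotensin II or with Saline for 24 h, and were chosen by these labels alone. All were male, on a C57BL/6J ApoE-/- background, fed regular chow and used at 8 weeks of age. IKKβ-/- mice are SMA-CreERT2 Ikkβ Flox/Flox ApoE-/- mice, in which tamoxifen activates a Cre recombinase driven by the Acta2 promoter, so that the deletion is confined by design to cells that use this promoter. IKKβ+/+ mice (5 with Ang II and 5 with saline, set beside the others where the effects are compared) carried the same CreERT2 transgene and the same ApoE deficiency and were also given tamoxifen. Ang II was delivered by osmotic pumps, at 500 to 1000 ng/min/kg according to the labels. The study's methods give the upper of these doses for the sequenced mice. Whole vessel segments were sequenced as bulk RNA from poly(A) libraries, so the values sum over smooth muscle, endothelium, adventitia and any attached fat, and fewer cells of a type and less RNA per cell cannot be told apart. Mouse numbers did not interleave between groups, and since no batch is named, any batch cannot be told apart from the groups.

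Ang II is the effector peptide of the renin-angiotensin system. It acts on smooth muscle through the type 1 receptor, raises blood pressure, and in ApoE-deficient mice leads to dissection and aneurysm above the renal arteries. IKKβ is the kinase that marks the inhibitors of NF-κB for degradation and so frees NF-κB to enter the nucleus and switch on genes of inflammation and survival. The study asked which early transcriptional programs of the aorta depend on this kinase.

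Ikbkb, which encodes IKKβ (ENSMUSG00000031537.15, chromosome 8 of GRCm38, 22659212 to 22706589), stood at 572.1, 430.2, 672, 515.4 and 548.8 normalized counts in the 5 Ang II-treated IKKβ-/- mice and at 464.2, 572, 585.5 and 439 in the 4 saline-infused ones. The 9 IKKβ-/- mice averaged 533.3 ± 78.9 (SD) against 699.7 ± 66.8 (SD, n = 10) in IKKβ+/+ mice, 23.8% lower (p = 0.000173, exact permutation test, two-sided). Of the 9, 8 lay below the lowest IKKβ+/+ mouse, at 594.3. Transcript from cells without the Cre recombinase remains in a whole vessel. Between 11382573 and 19539387 reads lay on genes in each of the 9 mice, and no pair within the groups looked like a single library deposited again. The share of reads on mitochondrially encoded mRNAs ran from 7.88% to 37.2% in Ang II-treated and from 8.89% to 38.7% in saline-infused IKKβ-/- mice, with mice X2385 and X2406 highest, so it did not separate the groups. Smooth muscle markers were the most abundant of the cell type markers in each of the 9 mice (their sums ran from 314300 to 603000 normalized counts, against at most 188500 for fibroblast markers), with Acta2 at 171118 ± 42491 normalized counts (SD, n = 5) under Ang II and at 194321 ± 26062 (SD, n = 4) under saline.

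Of the 14845 genes tested, 785 (5.29%) were called when IKKβ-/- mice given Ang II were set against those given saline. A gene was called here when limma gave an adjusted p under 0.1 (Benjamini-Hochberg over all genes tested) and a fold change above 1.2, on log2(normalized count + 1), a scale on which the change of a gene with few reads is pulled toward 0, and the folds are those of the fit. Ang II was followed by higher expression of 385 of these genes (2.59%) and lower expression of 400 (2.69%), and 190 rises and 175 falls exceeded 2-fold. The values of the 5 and the 4 mice did not overlap in 785 genes (5.29%), 358 higher and 427 lower, and 472 genes were both called and free of overlap. The median log2 fold change of all genes tested was -0.0029, and 2636 of the 14845 had an unadjusted p under 0.05 (limma). The 15 largest falls among the genes named by size included Atf3, Fos, Jun, Hspa1a, Hlf and Ciart, of stress responses and the clock, and 6 of the 15 largest rises were white adipocyte markers. The rises of endoplasmic reticulum chaperones were smaller. The number of calls rested on single mice: 435 genes without the saline-infused mouse X2406, 455 without X2401, 499 without the Ang II-treated mouse X2384 and 521 without X2385. It was 295 when the fit held the IKKβ-/- mice alone.

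**Figure D1:**
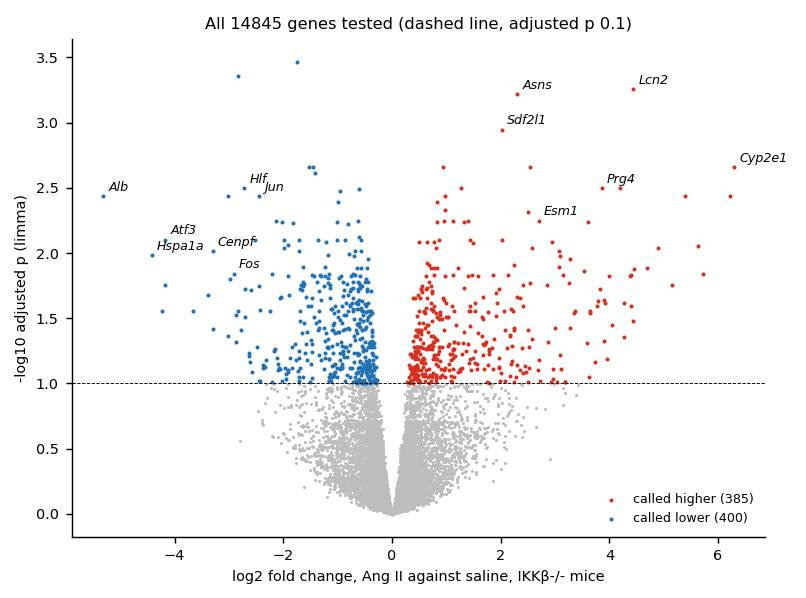
Volcano plot of the 14845 genes tested. The x axis gives the log2 fold change of the IKKβ-/- mice with Ang II (n = 5) against those with saline (n = 4) and the y axis -log10 of the adjusted p (limma), with genes called higher in red (385), genes called lower in blue (400) and the others in grey, and Cyp2e1 and Alb lie farthest out on either side.

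**Figure D2:**
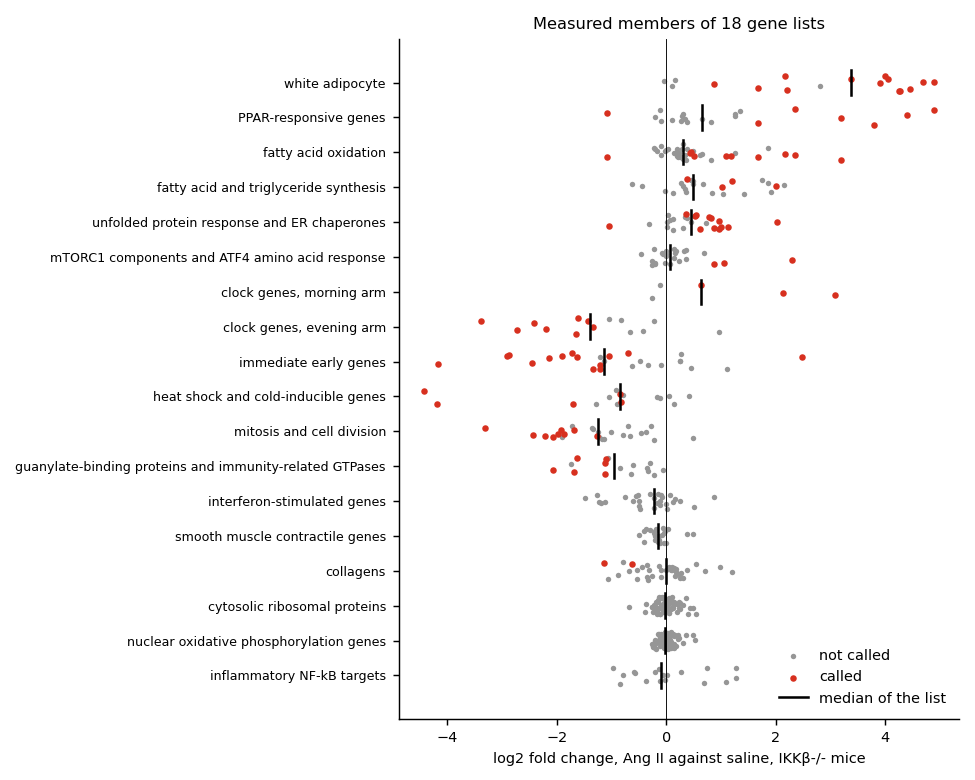
Log2 fold change of every measured member of 18 gene lists in IKKβ-/- mice, 1 point a gene, red where called and grey where not, with a black bar at the median of the list. White adipocyte markers lie farthest to the right (median 3.38), immediate early, evening clock and mitosis genes have medians to the left of 0, and contractile, ribosomal and oxidative phosphorylation genes gather around 0.

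Immediate early genes are transcribed within minutes of a stimulus and encode factors such as FOS, JUN, EGR and ATF3 or the phosphatases that end MAP kinase signalling. In IKKβ-/- mice 13 of 25 measured members were lower with Ang II and 1 was higher, with a median log2 fold change of -1.13. Fos (chromosome 12, 85473890 to 85477273), a partner in the AP-1 dimer, had 336.4, 334.9, 228.2, 399.8 and 395.9 normalized counts with Ang II and 2530, 1148, 2407 and 5719 with saline. The highest Ang II-treated mouse thus lay below the lowest saline-infused mouse, a fall of 7.54-fold (log2 fold change -2.91 ± 0.60, SE, adjusted p = 0.0144, limma).

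Atf3, a repressor induced by many kinds of cell stress, was even further apart. Its values were 233.8, 255.6, 376.1, 152.5 and 205.7 with Ang II and 11850, 3109, 888.2 and 10050 with saline, a log2 fold change of -4.18 ± 0.76 (SE, adjusted p = 0.00793, limma). Saline-infused mice X2401 and X2409 held the most Atf3 and X2406 the least, and no Ang II-treated mouse reached X2406. Jun, the other partner in AP-1, fell 5.48-fold, from 8587, 3009, 3809 and 8458 to between 811.4 and 1181. Fosb fell by 2.88 on the log2 scale. Nr4a1, a nuclear receptor that is itself an early response gene and was counted with the renin-angiotensin list, fell 4.12-fold (adjusted p = 0.0217, limma), with 358.1 to 625.5 normalized counts in the Ang II-treated and 876.5 to 3617 in the saline-infused mice. The exception in the list was Dusp4, a phosphatase of MAP kinases, which rose (log2 fold change 2.47 ± 0.75, adjusted p = 0.0823, limma) with 120.4 normalized counts in both X2384 and X2385 and at most 34.7 in the other Ang II-treated mice. Of the other Ang II-treated mice X2383, at 7.937, lay within the saline range of 4.354 to 8.428, and the call was lost in 7 of the 9 fits that left out a mouse (all but those without X2380 or X2383), for example without X2384 (adjusted p = 0.195, limma).

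Several genes of mechanical and growth signalling fell along with them. Ccn1, a matricellular protein induced through YAP and SRF, had 6794, 2868, 3584, 3528 and 2303 normalized counts with Ang II and 43350, 10240, 16200 and 40250 with saline, a 6.52-fold fall (adjusted p = 0.0189, limma). Its relative Ccn2, a profibrotic matricellular protein, was not called (log2 fold change -1.05 ± 0.43, adjusted p = 0.209, limma): saline-infused mouse X2406 stood at 28720 among Ang II-treated values of 22200 to 54540, while the other saline values were 80910 to 115800. Abra, an actin-binding activator of SRF, fell 5.71-fold, and X2406 was again the saline-infused mouse nearest to the Ang II-treated ones, at 353.1 against 308.7. Klf2 and Klf6, Krüppel-like factors that respond to flow and injury, fell 2.20-fold and 2.01-fold, and both groups of 5 and 4 mice stayed apart for each. Klf4, a driver of the smooth muscle phenotypic switch, had a log2 fold change of -0.54 ± 0.23 that did not pass (adjusted p = 0.216, limma). The secreted protease Adamts1 fell 2.39-fold (adjusted p = 0.0377, limma), with saline-infused X2406 at 4821 inside the Ang II range of 2402 to 5408.

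Heat shock proteins refold denatured proteins and are induced by heat, handling and oxidative stress. Of 15 heat shock and cold-inducible genes measured, 5 were lower and none higher, and the median log2 fold change was -0.848. Hspa1a and Hspa1b, the inducible HSP70 genes that lie side by side on chromosome 17, had log2 fold changes of -4.42 and -4.18 (adjusted p = 0.0104 and 0.0177, limma). They are near-identical copies, so reads may have been split between them and their separate values are uncertain. Hspa1a had 349.3, 292.9, 322.3, 160.6 and 92.54 normalized counts with Ang II and 9932, 9007, 733.2 and 7445 with saline. Mouse X2406 was set apart from the other saline-infused mice by an order of magnitude, yet all 4 were above all 5 Ang II-treated mice. Dnajb1, the HSP40 partner of HSP70, fell 3.27-fold (adjusted p = 0.0561, limma) but X2406, at 463, overlapped the Ang II range of 423.9 to 707.9. Rbm3, induced by cold, fell 1.80-fold.

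The counts of these lists moved with single mice. The 13 lower immediate early genes became 8 without X2401, and the 5 lower heat shock genes became 2 without X2401 or without X2385 and 3 without X2409. In IKKβ+/+ mice the same genes showed no common direction: the median log2 fold change was -0.0013 for immediate early and 0.146 for heat shock genes, with Atf3 at 0.31 ± 0.72 and Hspa1a at -0.26 ± 0.81 (SE). Saline-infused IKKβ-/- mice averaged 6475 normalized counts of Atf3 against 875.6 in saline-infused IKKβ+/+ mice, while the Ang II-treated mice averaged 244.7 and 1653. How long each vessel was handled before lysis was not given in the sources used here, and its part in these values was not tested.

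**Figure D3:**
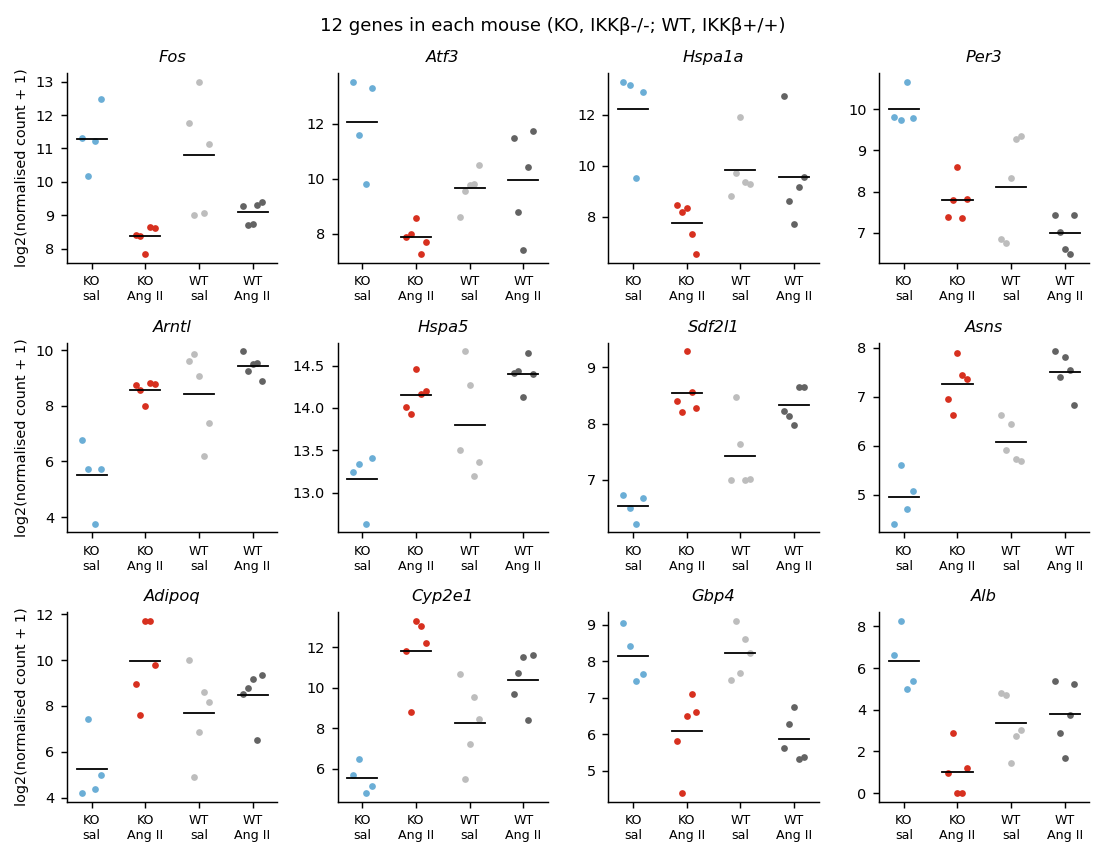
Values of 12 genes in each of the 19 mice, as log2(normalized count + 1) on the y axis, by genotype and treatment (KO, IKKβ-/-; WT, IKKβ+/+; sal, saline). Points are mice and black lines are group means. The 12 genes were picked from the named genes, and a gene named by size had to be free of overlap. That the saline and Ang II points of IKKβ-/- mice do not overlap here is thus in part a matter of choice. Other named genes, such as Ccn2 and Adamts1, do overlap.

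The molecular clock is a loop in which ARNTL (BMAL1) with CLOCK or NPAS2 activates the Per, Cry, Rev-erb and PAR-bZIP genes through E-boxes, and the products of these genes switch the activators off, so that the activating and the repressing arm peak at opposite times of day. Of 14 evening-arm genes, 8 were lower with Ang II and none higher (median log2 fold change -1.39), and 11 had groups that did not overlap. Of 5 morning-arm genes, 3 were higher and none lower. Among those that did not pass, the repressor Nfil3 of the morning arm had a log2 fold change of -0.27.

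Hlf (chromosome 11, 90336536 to 90390895), a PAR-bZIP factor of the clock output, had 96.11, 237.3, 177.5, 107.6 and 222.4 normalized counts with Ang II and 975.7, 712.2, 1483 and 1149 with saline, 6.59-fold lower (adjusted p = 0.00319, limma). Per3, a member of the period family, fell 4.61-fold, from 852.3 to 1616 with saline to between 162.2 and 385.6 with Ang II. Ciart, a repressor of ARNTL, had a log2 fold change of -3.38, and Dbp, another PAR-bZIP factor, one of -2.43 (adjusted p = 0.0211 and 0.0950, limma). All 4 saline-infused mice lay above all 5 Ang II-treated mice for each of these genes. Per1, which glucocorticoids also induce, fell 2.7-fold (adjusted p = 0.0308, limma). In the opposite arm Arntl had 427, 378.6, 254.6, 452.8 and 440.9 normalized counts with Ang II and 109.1, 51.62, 12.61 and 51.52 with saline, 8.51-fold higher (adjusted p = 0.0105, limma). Npas2 rose 4.39-fold and Clock 1.56-fold, again without overlap. Mouse X2406 was the extreme of the saline group at both ends, highest for Hlf, Per3, Dbp and Ciart and lowest for Arntl, Npas2 and Clock.

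The letters of the E-box, CACGTG, occurred in the 250 bases before the RefSeq start of 4 of the 7 lower evening-arm genes that had a promoter sequence (Bhlhe41, Ciart, Per1 and Tef) and in 6.86% of 27025 genes. Of all 11 evening-arm genes with a promoter sequence 5 held them, the other being Cry1, which was not called. Per1, chr11:69098699-69098948 (+ strand), and Ciart, chr3:95882229-95882388 (- strand), are shown from RefSeq (GRCm38.p6), 5′ to 3′ up to the base before the start, with each match in capitals, because they are a single-copy and a multiple-copy case among genes that fell together.
Per1: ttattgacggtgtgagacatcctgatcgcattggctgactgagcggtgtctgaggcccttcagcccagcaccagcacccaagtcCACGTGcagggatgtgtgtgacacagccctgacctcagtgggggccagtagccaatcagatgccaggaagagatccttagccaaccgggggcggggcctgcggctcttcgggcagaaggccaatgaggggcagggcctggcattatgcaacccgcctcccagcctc
Ciart: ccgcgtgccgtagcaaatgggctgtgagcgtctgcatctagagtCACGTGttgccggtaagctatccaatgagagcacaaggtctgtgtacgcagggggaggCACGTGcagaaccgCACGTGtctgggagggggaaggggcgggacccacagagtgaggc
Ciart held 3 copies and Per1 held 1. A match is a description of these letters and not a site.

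With each of the 9 mice left out in turn the count stayed at 3 higher genes for the morning arm and at 6 to 8 lower genes for the evening arm, the fewest without X2406. When a score of the clock genes was added to the fit as a covariate, 24 genes were called in place of 785. The hour at which the vessels were taken was not given in the sources used here, and its part was not tested. The clock score itself separated the groups (its evening part stood at -0.582 to 0.178 with Ang II and at 0.953 to 1.42 with saline), so in that fit the score and the treatment cannot be told apart. The median log2 fold change was -1.39 in IKKβ-/- and -0.524 in IKKβ+/+ mice for the evening arm and 0.643 and 0.806 for the morning arm, and no gene of either arm passed the test of the difference between genotypes (smallest adjusted p = 0.215, limma). The saline-infused IKKβ+/+ mice were themselves split. Their evening score was -0.9005 in X2370 and -1.136 in X2372, and 0.2465 to 0.8778 in the others. The IKKβ+/+ medians thus average over unlike mice.

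White adipocytes store triglyceride in a single droplet and secrete adipokines. Of 17 markers of these cells measured, 13 were higher with Ang II and none lower (median log2 fold change 3.38), and 8 had groups that did not overlap. Adipoq (chromosome 16, 23146536 to 23158028), the hormone adiponectin, had 489.8, 193.7, 3350, 3298 and 888.2 normalized counts with Ang II and 17.37, 172.8, 19.82 and 30.48 with saline (log2 fold change 4.70 ± 0.95, SE, adjusted p = 0.0129, limma). The ranges did not overlap, although Ang II-treated X2383 and saline-infused X2403 were close. X2384 and X2385 had the highest values of the 9 mice. The same pair led Cfd (adipsin, at 11730 and 16460), Cidec (a lipid droplet fusion protein, 3219 and 2889), Plin1 (the droplet coat perilipin, 1834 and 1700), Car3 (carbonic anhydrase of fat, 20530 and 16320) and Retn (resistin, 808.3 and 1024), each 16.0-fold or more higher with Ang II.

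Cyp2e1 (chromosome 7, 140763739 to 140774987), a cytochrome P450 of liver and fat that oxidises ethanol and fatty acids, had the largest rise by fitted log2 fold change among the genes named by size. Its values were 3527, 442.1, 9978, 8443 and 4644 with Ang II and 50.19, 88.49, 27.02 and 34.11 with saline (log2 fold change 6.29 ± 0.93, SE, adjusted p = 0.0022, limma). The lowest Ang II-treated mouse was thus well above the highest saline-infused mouse. Acsm3, a medium-chain acyl-CoA synthetase, had 47.62 to 783.6 normalized counts with Ang II and 0 to 32.66 with saline. Klb, the co-receptor through which FGF21 acts on fat, rested on 418 reads in the Ang II-treated and 3 reads in the saline-infused mice together. B3galt2, a galactosyltransferase, went from at most 11.59 normalized counts to between 34.92 and 1153. Ces1d, a carboxylesterase that releases stored triglyceride, rose by 5.15 on the log2 scale with an overlap between X2383 (93.66) and X2403 (119). Hp, the haemoglobin scavenger haptoglobin, rose 20.7-fold, with 3432 and 4411 normalized counts in X2384 and X2385 and 137.3 to 370.2 in the other Ang II-treated mice.

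The lists of fatty acid handling, which also hold genes of fat such as Fabp4, moved less by their medians. Of 39 fatty acid oxidation genes, 9 were higher and 1 lower (median log2 fold change 0.302). They were led by genes of uptake and uncoupling: Cd36, a fatty acid transporter, rose 5.09-fold (adjusted p = 0.0221, limma), Fabp4, the fatty acid binding protein of fat and macrophages, 4.49-fold (adjusted p = 0.0433, limma), and Ucp3, an uncoupling protein, by 3.18 on the log2 scale (adjusted p = 0.0966, limma). With edgeR Ucp3 was not called (adjusted p = 0.138). Fabp3, the binding protein of muscle, fell 2.13-fold, from 97.97 to 131.3 normalized counts with saline to 36.98 to 91.28 with Ang II. The summed normalized counts of the oxidation genes were highest in X2384 and X2385, at 73223 and 63343, against at most 43181 in the other mice. Of 21 PPAR-responsive genes, 6 were higher and 1 lower (median 0.644), and several of them (Cidec, Plin5) are also droplet proteins. Of 23 genes of fatty acid and triglyceride synthesis, 4 were higher and none lower (median 0.491), among them Agpat2, an acyltransferase of triglyceride synthesis, which rose 2.31-fold. Another was Scd1, the desaturase that makes oleate, with 3697 to 16310 normalized counts with Ang II and 999.9 to 8573 with saline. Scd1 was not called by edgeR or DESeq2 (adjusted p = 0.162 and 0.11). The cholesterol pathway, by contrast, gave no call in 21 genes (median 0.0684, 2 genes with an unadjusted p under 0.05, smallest adjusted p = 0.112, limma, with 1 call each by edgeR and DESeq2), and its median in IKKβ+/+ mice was 0.888.

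The adipocyte markers were also summed in each mouse. Their summed normalized counts were 19240, 11020, 65600, 64970 and 21900 in Ang II-treated IKKβ-/- mice and 6599, 9835, 6724 and 8620 in saline-infused ones, so that by this sum, which the most abundant markers dominate, the groups did not overlap. They did overlap by the mean log2 score of the same markers, with X2383 (Ang II) at -0.789 and X2403 (saline) at -0.449. In IKKβ+/+ mice the sums overlapped, at 9113 to 18410 with Ang II and 5840 to 31060 with saline. Without X2384 and X2385 together 271 genes were called in place of 785, with 1 of the 17 adipocyte markers among them, 0 of the fatty acid oxidation genes and 1 PPAR-responsive gene. The median log2 fold change of the adipocyte markers in that fit was 2.53, with Adipoq at 3.53, Cidec at 3.71 and Car3 at 3.19 (adjusted p = 0.108, 0.0829 and 0.178, limma). With 1 mouse left out the 13 adipocyte markers became 8 without X2401 or X2406 at the least, the 9 higher fatty acid oxidation genes 2 to 5 without X2384, X2385, X2401, X2403 or X2406, the 6 PPAR-responsive genes 4 without X2385 or X2401, and the 4 synthesis genes 0 without X2384 or X2385 and 1 without X2401 or X2406. With the adipocyte score as a covariate 20 genes were called. The median log2 fold change in that fit was 0.192 for the adipocyte markers and -0.0115 for fatty acid oxidation genes. It was 0.37 for PPAR-responsive and -0.254 for synthesis genes. The adipocyte score is built from the adipocyte markers and was higher in most Ang II-treated than saline-infused IKKβ-/- mice. The loss of calls and the shifts of medians in that fit, for these lists or others, therefore say nothing of where the rises come from. Cyp2e1 was called in both of these fits, with log2 fold changes of 5.39 without the pair and 2.62 with the covariate (adjusted p = 0.0351 and 0.0474, limma). The study's methods describe clearing adventitial fat from the dissected aorta. How much remained on each segment was not given in the sources used here, and its part was not tested.

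**Figure D4:**
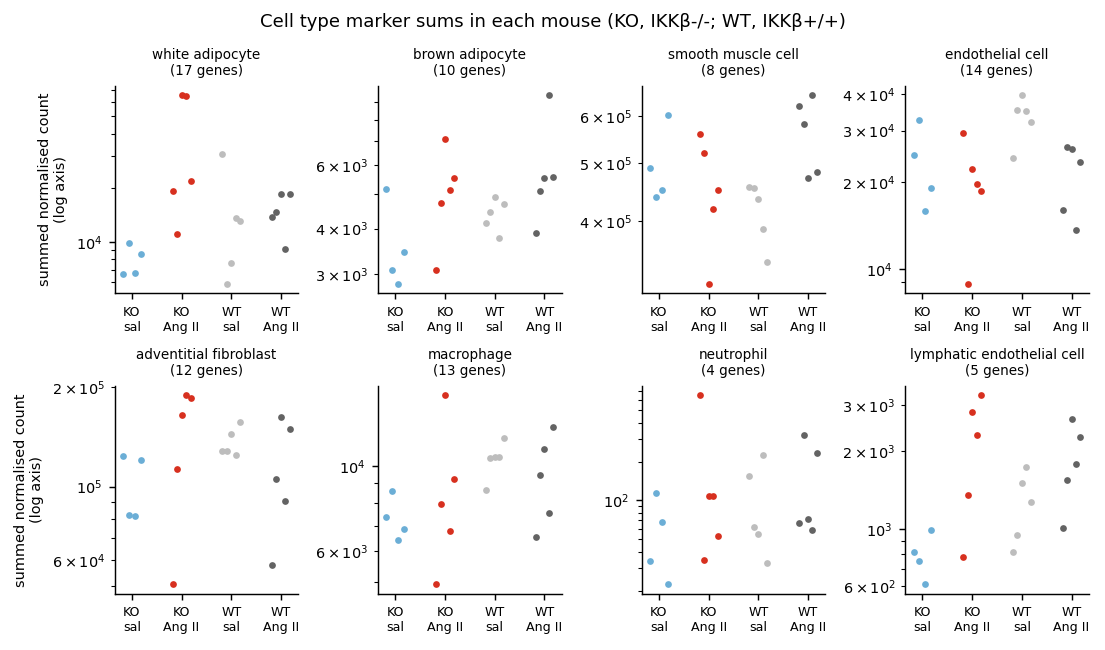
Summed normalized counts of the markers of 8 cell types in each mouse, on a log axis, by genotype and treatment (KO, IKKβ-/-; WT, IKKβ+/+; sal, saline), 1 point a mouse. Sums of white adipocyte markers, which the most abundant markers dominate, run from 11020 to 65600 in Ang II-treated and from 6599 to 9835 in saline-infused IKKβ-/- mice (by the mean log2 score these groups overlap), while smooth muscle, endothelial, fibroblast and macrophage markers overlap.

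Proteins bound for secretion or membranes are folded in the endoplasmic reticulum by chaperones such as BiP (Hspa5), GRP94 (Hsp90b1) and calreticulin (Calr). When unfolded proteins build up, ATF6 and XBP1 raise these genes by binding the ER stress element of their promoters. In IKKβ-/- mice 12 of 25 genes of the unfolded protein response were higher with Ang II and 1 was lower (median log2 fold change 0.444), and 23 of 25 had a positive log2 fold change. The higher genes were Hspa5, Hsp90b1, Calr, Canx, Pdia3, Pdia4, Pdia6, Dnajb11, Sdf2l1, Creld2, Hyou1 and Xbp1, which are chaperones, disulfide isomerases and the factor itself.

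The letters searched for as an ER stress element were CCAAT, then 9 bases of any kind, then CCACG, on either strand. They were present in the 250 bases before the RefSeq start of 6 of the 11 higher genes with a promoter sequence (Calr, Canx, Creld2, Hsp90b1, Hspa5 and Pdia6) and in 0.13% of 27025 genes (35 genes). Of the 22 members of the list with a promoter sequence 8 held them, the other two being Dnajc3 and Syvn1, which were not called (log2 fold change 0.35 and 0.13). A total of 4 of these promoters are shown, of the 6 higher genes that hold the match. They come from RefSeq (GRCm38.p6), 5′ to 3′ up to the base before the start, with the match in capitals: Hspa5 at chr2:34771930-34772089 (+ strand), Creld2 at chr15:88819486-88819645 (+ strand), Pdia6 at chr12:17266429-17266588 (+ strand) and Calr at chr8:84846932-84847181 (- strand).
Hspa5: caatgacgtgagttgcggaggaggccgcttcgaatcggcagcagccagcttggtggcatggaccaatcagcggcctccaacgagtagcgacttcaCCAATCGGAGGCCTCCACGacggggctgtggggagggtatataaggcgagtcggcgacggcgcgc
Creld2: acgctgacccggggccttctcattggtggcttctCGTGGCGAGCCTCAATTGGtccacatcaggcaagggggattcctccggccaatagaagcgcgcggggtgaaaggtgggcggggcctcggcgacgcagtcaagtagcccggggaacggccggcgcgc
Pdia6: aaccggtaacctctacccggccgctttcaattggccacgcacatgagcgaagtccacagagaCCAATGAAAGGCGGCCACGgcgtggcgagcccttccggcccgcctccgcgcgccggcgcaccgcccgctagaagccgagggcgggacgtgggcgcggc
Calr: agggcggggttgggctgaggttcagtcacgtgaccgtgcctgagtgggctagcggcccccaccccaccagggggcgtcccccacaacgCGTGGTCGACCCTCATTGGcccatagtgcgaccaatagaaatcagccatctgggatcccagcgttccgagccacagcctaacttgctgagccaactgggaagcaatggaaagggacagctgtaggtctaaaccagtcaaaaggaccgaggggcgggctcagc
The match of Hspa5 began 65 bases before the start and that of Pdia6 98 bases before it, both on the gene's strand, while those of Creld2 and Calr lay on the other strand, 126 and 162 bases out. No match in the other 5 promoters says only that these letters were not in this window.

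Sdf2l1 (chromosome 16, 17130138 to 17132383), a partner of BiP, had 337.3, 295.3, 622.3, 377.3 and 311.1 normalized counts with Ang II and 105.2, 89.55, 73.86 and 100.9 with saline, 4.05-fold higher (log2 fold change 2.02 ± 0.27, SE, adjusted p = 0.00114, limma). Creld2, an ER-resident disulfide isomerase, had 881.7, 783.4, 990, 714.6 and 789.2 with Ang II and 368.7, 402.4, 335.1 and 416.5 with saline, 2.18-fold higher (adjusted p = 0.00566, limma). In both genes the groups were far apart compared with the spread within them. Hspa5 stood at 15570 to 22520 with Ang II and 6369 to 10880 with saline, 1.99-fold higher (adjusted p = 0.0308, limma), and Pdia6, a disulfide isomerase, rose 1.95-fold. Ppp1r15a (GADD34), which restarts translation after stress, moved the other way: 527.2 to 624.6 normalized counts with Ang II and 888.2 to 1391 with saline, 2.06-fold lower (adjusted p = 0.0254, limma).

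With each mouse left out in turn 7 to 13 of the 25 genes were higher, the fewest without X2406, and 7 were higher without X2384 and X2385 together. With the adipocyte score as a covariate 4 were higher (median log2 fold change 0.541), among them Sdf2l1 and Creld2 (log2 fold change 2.30 and 1.44, adjusted p = 0.0474 for each, limma). With the clock score as a covariate none was higher (median log2 fold change 0.301). IKKβ+/+ mice had a median log2 fold change of 0.326 for the list, with Sdf2l1 at 0.90 ± 0.26 (SE, adjusted p = 0.0507, limma).

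A few genes of amino acid supply, of a kind that ATF4 can activate, rose, and the part of ATF4 was not tested. Of 25 genes of mTORC1 and the ATF4 amino acid response, 3 were higher and none lower (12%, against 5.29% of all genes tested, median log2 fold change 0.0656). Asns, asparagine synthetase, had 122.9, 97.62, 236.7, 171.8 and 163.2 normalized counts with Ang II and 20.27, 47.41, 25.22 and 32.66 with saline, 4.94-fold higher (adjusted p = 0.000605, limma), with no overlap. Psat1, of serine synthesis, rose 1.84-fold and Mthfd2, of mitochondrial folate metabolism, 2.07-fold. Without X2401 the count was 1, and without X2384 or X2406 it was 2. These 3 genes were also higher in IKKβ+/+ mice, by 1.42, 1.11 and 1.36 on the log2 scale. Other anabolic lists gave next to no calls in IKKβ-/- mice: 0 of 85 cytosolic ribosomal proteins (3 with an unadjusted p under 0.05), 1 of 74 ribosome biogenesis factors, 0 of 74 mitochondrial ribosomal proteins (8), 0 of 76 nuclear oxidative phosphorylation genes (2) and 0 of 18 glycolysis genes (2), with medians between -0.0293 and 0.125. In the lists with 0 calls by limma, edgeR called none and DESeq2 called 1, a mitochondrial ribosomal protein. The gene called among the biogenesis factors was Rcl1, 1.64-fold higher. In IKKβ+/+ mice the medians of these lists ran from 0.193 to 0.337. With saline, summed cytosolic ribosomal protein counts were 127000 to 166200 in IKKβ-/- and 102900 to 120300 in IKKβ+/+ mice. Those of oxidative phosphorylation genes were 72720 to 80190 and 58340 to 70690. The saline sums of biogenesis factors and of glycolysis genes overlapped between genotypes. The part of this baseline in the absent calls was not tested.

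Mitosis genes encode the spindle, the kinetochore and the cyclins of dividing cells. Of 26 measured, 9 were lower with Ang II, none was higher and 17 did not pass (median log2 fold change -1.25). In 1 of them the groups did not overlap, 2 were lower with the IKKβ-/- mice alone in the fit, and 1 of 26 had a positive log2 fold change. Cenpf, a kinetochore protein, had 10.17, 4.762, 8.453, 0 and 1.285 normalized counts with Ang II and 81.07, 72.69, 39.63 and 11.61 with saline (log2 fold change -3.30 ± 0.64, SE, adjusted p = 0.00973, limma). The closest pair of mice, X2380 and X2409, differed little. Cdk1, the kinase that starts mitosis, and Hmmr, a spindle protein, had log2 fold changes of -2.07 and -2.21 (adjusted p = 0.0775 and 0.0966, limma), with X2409 inside the Ang II range for both. Expression was low throughout, and leaving out single mice gave 2 to 15 lower genes, with 2 to 5 without X2383, X2384, X2385, X2386, X2401, X2403 or X2406 and 15 without X2409. Of 27 DNA replication genes, 1 was called (3.7%, against 5.29% of all genes tested), the helicase subunit Mcm7, 1.68-fold higher. In IKKβ+/+ mice the median of the mitosis list was -1.14, close to that of IKKβ-/- mice.

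Guanylate-binding proteins and immunity-related GTPases are made in response to interferon and attack intracellular microbes. Of 16 measured, 6 were lower and none higher (median log2 fold change -0.961), and 0 of the 16 had a positive log2 fold change. Gbp4 (chromosome 5, 105115767 to 105139586) had 55.45, 19.84, 89.81, 136.5 and 96.4 normalized counts with Ang II and 532.7, 342.4, 174.8 and 201 with saline, 4.19-fold lower (adjusted p = 0.0222, limma). Gbp5 fell 3.22-fold (adjusted p = 0.0279, limma), and neither gene overlapped between the groups. These genes are near-identical in part, so the authors' counting could have shared reads among them. MHC genes went the same way with fewer calls. Of 17 class I genes 2 were called (11.8%, against 5.29% of all genes tested), and 3 had an unadjusted p under 0.05. The called genes, H2-Q6 and H2-Q4, fell 3.15-fold and 1.95-fold (paralogs whose reads may be split, so their separate values are uncertain). Of 10 class II genes 2 were called lower (20%), the transactivator Ciita and its target H2-Eb1 (log2 fold change -1.51 and -1.11, adjusted p = 0.0977 and 0.0898, limma). With edgeR neither class II gene was called (adjusted p = 0.202 and 0.107), and there were 0 class II calls without X2380, X2383, X2401, X2403 or X2409 and with the IKKβ-/- mice alone in the fit. None of 29 other interferon-stimulated genes was called with limma (median -0.219, 4 with an unadjusted p under 0.05), and none by edgeR and 1 by DESeq2. Without X2401 the count of lower GTPase genes was 1 in place of 6, and it was 3 without X2403 or X2406, and in IKKβ+/+ mice the list had a median of -1.54.

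Among 46 fibrosis and matrix genes, 5 were higher and 4 lower with Ang II (19.6%, against 5.29% of all genes tested). Prg4 (chromosome 1, 150449412 to 150466165), the lubricating proteoglycan lubricin, had 269.9, 554.8, 862.2, 557.2 and 457.6 normalized counts with Ang II and 23.16, 38.98, 64.86 and 22.5 with saline, 14.5-fold higher (log2 fold change 3.86 ± 0.60, SE, adjusted p = 0.00319, limma). In IKKβ+/+ mice it rose by 3.77 ± 0.56 on the same scale. Adamts4, an aggrecanase, rose by 3.14 on the log2 scale (26.19 to 106.7 normalized counts against 0 to 17.42), Adam12, a metalloprotease of injured tissue, by 2.41, and Mmp3 (stromelysin) 2.77-fold, although Ang II-treated X2380 at 1209 lay among the saline values of 871.2 to 1345. Fbln5, which assembles elastic fibres, fell 1.73-fold, from 13470 to 19440 with saline to between 8506 and 11140 with Ang II (adjusted p = 0.0102, limma). Thbs2, an antiangiogenic matricellular protein, fell 1.77-fold. None of 35 collagens was higher, and 2 were lower (5.71%, against 5.29% of all genes tested). They were the basement membrane chain Col4a5 (1.54-fold) and the fibrillar Col27a1 (2.19-fold). Neither was called with the IKKβ-/- mice alone in the fit.

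Other secreted and surface proteins stood out one by one. Lcn2, the iron-sequestering protein lipocalin 2, had 72.08, 17.46, 47.55, 97.95 and 35.99 normalized counts with Ang II and 4.826, 0, 0 and 2.903 with saline, or 234 reads against 9 in the groups as a whole (log2 fold change 4.44 ± 0.55, SE, adjusted p = 0.000553, limma). Esm1, a proteoglycan of endothelial tip cells, rose 6.49-fold, from 42.82 to 229.7 with saline to between 403.6 and 902.3 with Ang II (adjusted p = 0.00565, limma), and IKKβ+/+ mice showed a rise of 2.87 on the log2 scale. The metal-binding protein Mt2 rose 3.59-fold (adjusted p = 0.053, limma), without overlap. Kdr, the main VEGF receptor, rose 3.45-fold, but X2380 at 40.66 stood within the saline values of 28.95 to 76.2. Nr1h3, the oxysterol receptor LXRα, rose 2.64-fold (adjusted p = 0.00566, limma), and Scarb1, the HDL receptor, 2.19-fold.

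None of 24 contractile genes was called (median log2 fold change -0.148, 4 with an unadjusted p under 0.05, smallest adjusted p = 0.128, limma), nor by edgeR or DESeq2, and 3 of the 24 had a positive log2 fold change. Without X2384 and X2385 together the median was 0.0678, so its sign rested on these mice. In IKKβ+/+ mice the median was 0.304, with 7 called higher. No contractile gene passed the test of the difference between genotypes (smallest adjusted p = 0.242, limma). Tagln, which encodes the actin-binding protein SM22, had 141000, 115200, 94560, 129000 and 113700 normalized counts with Ang II and 113600, 110700, 108100 and 125800 with saline (log2 fold change 0.04 ± 0.22, SE). Myh11, the smooth muscle myosin heavy chain, had 61000 to 142200 with Ang II and 88140 to 167400 with saline (log2 fold change -0.22 ± 0.26). The autophagy gene Atg5 had a log2 fold change of 0.10 ± 0.11. For none of the 3 did the groups separate. Of 42 potassium channel genes, 2 were higher and 3 lower (11.9%, against 5.29% of all genes tested): Kcnj8, the pore of the vascular ATP-sensitive channel, rose 1.5-fold and the glial inward rectifier Kcnj10, at 47.56 normalized counts or fewer in every mouse, by 3.08 on the log2 scale, while Kcnj2, an inward rectifier, fell 3.01-fold and the subunits Kcns3 and Kcnab1 fell 2.48-fold and 1.42-fold. Kcnj10 was not called with edgeR (adjusted p = 0.141). Among 16 genes of Ang II receptors, the renin-angiotensin system and RGS proteins, the called members (12.5%) were Nr4a1 and Agt, the precursor of Ang II. The rise of Agt (log2 fold change 2.96 ± 0.92, adjusted p = 0.0916, limma) rested on 208.7 normalized counts in X2385 beside 8.453 to 25.71 in the other 4 mice.

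Of the listed inflammatory targets of NF-κB, the factor that IKKβ activates, 5 had values too low to be tested and the others were not called. This held for all 18 inflammatory targets (median log2 fold change -0.0886, 2 with an unadjusted p under 0.05) and for all 16 genes of the NF-κB subunits, the IKK complex and its feedback inhibitors (median 0.0634, again 2) with limma, and edgeR called none and DESeq2 1 in each list. Vcam1, an adhesion molecule for leukocytes, had 1938, 768.3, 2334, 1766 and 1370 normalized counts with Ang II and 2768, 2937, 2155 and 1501 with saline (log2 fold change -0.56 ± 0.26, adjusted p = 0.267, limma). Nfkbia, the inhibitor IκBα that NF-κB induces, stood at 0.06 ± 0.19 on the log2 scale in IKKβ-/- mice and at 0.89 ± 0.18 (SE, adjusted p = 0.0107, limma) in IKKβ+/+ mice, and the difference between these did not pass (adjusted p = 0.288, limma). Of 4 neutrophil, 3 T and NK cell and 5 B and plasma cell markers tested none was called, and for 9 T and NK cell markers the values were too low to be tested. A p that misses the threshold does not show that these genes were the same in both groups.

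Alb, the plasma protein albumin (chromosome 5, 90460897 to 90476602), had the largest fall of the genes named by size. It had 99.41, 306.6, 30.63 and 40.64 normalized counts with saline and 0.9242, 6.35, 0, 0 and 1.285 with Ang II, or 467 reads against 10 in the groups as a whole (log2 fold change -5.32 ± 0.87, SE, adjusted p = 0.00368, limma). In IKKβ+/+ mice it averaged 13.3 normalized counts with saline and 19.7 with Ang II, so the high values were those of the saline-infused IKKβ-/- mice. Other large falls had no group in common. Gkn3, a gastrokine, fell 5.48-fold and 2210407C18Rik, a gene known only by its clone name, 7.16-fold (adjusted p = 0.018 and 0.000439, limma), and both also fell in IKKβ+/+ mice (log2 fold changes of -2.79 and -2.27). Olfr224, an olfactory receptor gene, had 90.71 to 158.3 normalized counts with saline and 4.226 to 71.43 with Ang II.

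Markers of the other cell types were called as follows, beside 2.59% of all genes tested called higher. Of 14 endothelial markers 1 was higher (7.14%, Kdr), of 12 adventitial fibroblast markers 1 (8.33%, Dpep1, 2.38-fold), of 13 macrophage markers 1 (7.69%, Lyve1, 2.10-fold), of 9 Schwann cell and neuron markers 1 (11.1%, Sox10, 3.34-fold) and of 5 lymphatic endothelial markers 2 (40%, Lyve1 and Mmrn1), with all 5 above 0. With edgeR neither Sox10 nor Mmrn1 was called (adjusted p = 0.102 and 0.116). Of the endothelial markers 4 of 14 lay above 0 (median log2 fold change -0.219). Among the others, 8 of 12 fibroblast (median 0.151) and 10 of 13 macrophage markers (median 0.117) did so. The endothelial, fibroblast and macrophage counts were 0 without X2384, X2385, X2386, X2403 or X2406 and with the IKKβ-/- mice alone in the fit. Without X2401 the endothelial and macrophage counts were also 0. The Schwann cell and neuron count was 0 without any 1 mouse other than X2384. The lymphatic count was 0 without X2401 and 1 without X2384, X2385, X2386, X2403 or X2406. None of 8 smooth muscle markers was called. Mmrn1, a secreted protein of lymphatic endothelium, had 48.06, 232.6, 537.8, 597.3 and 1229 normalized counts with Ang II and 1.93, 9.481, 10.81 and 171.3 with saline, with saline-infused X2409 inside the Ang II range. The lymphatic sum ran from 780 to 3272 with Ang II and from 610.7 to 989.1 with saline, an overlap made by X2380, and the part of attached tissue in these values was not tested.

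Set beside IKKβ+/+ mice, where Ang II and saline differed in 1286 genes by the same rule, 199 genes were called in both genotypes with the same sign and 2 with opposite signs. The shared genes were 25.4% of the calls in IKKβ-/- mice and 15.5% of those in IKKβ+/+ mice. That a gene passed in IKKβ-/- mice alone does not show that its response depended on genotype. The test of the difference itself, the Ang II effect in IKKβ-/- minus that in IKKβ+/+ mice, gave 0 calls (0%) with limma, where 1654 genes had an unadjusted p under 0.05 and the smallest adjusted p was 0.215, while edgeR called 3 and DESeq2 279. Among the genes named here the smallest unadjusted p of that difference belonged to Adamts1, with log2 fold changes of -1.25 ± 0.32 in IKKβ-/- and 1.05 ± 0.30 (SE) in IKKβ+/+ mice, and it was 3.81e-05 (adjusted p = 0.215, limma). Abra, Alb and Atf3 followed, each falling in IKKβ-/- mice beside values of 0.60, 0.44 and 0.31 in IKKβ+/+ mice. At the other end Prg4, Esm1, Gkn3 and Gbp4 had close values in both genotypes.

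**Figure D5:**
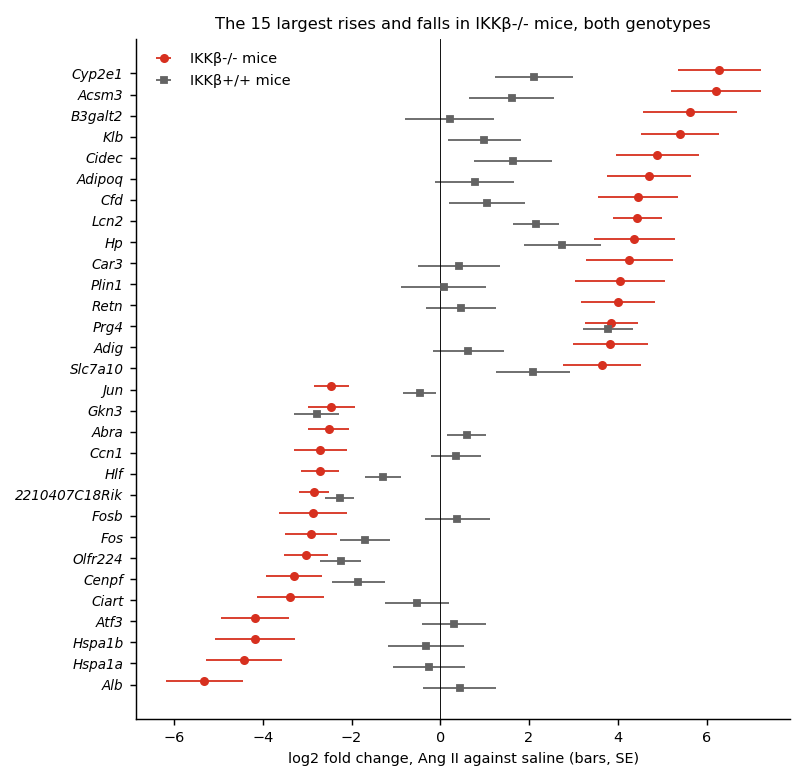
Log2 fold change (x axis) of Ang II against saline, with SE as bars, for the 15 largest rises and the 15 largest falls of IKKβ-/- mice (red circles), beside the same genes in IKKβ+/+ mice (grey squares). Prg4, Gkn3, 2210407C18Rik and Olfr224 lie close together in both genotypes, while Plin1, Atf3, Hspa1a, Hspa1b and Alb lie within 0.44 of 0 in IKKβ+/+ mice, and no difference between the genotypes passed the adjusted test with limma.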

How the data were processed

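RNA from suprarenal aortas was sequenced in 19 mice, which were grouped by their labels. The authors trimmed the reads with Trimmomatic 0.35, aligned them to GRCm38 with Gencode genes and counted them with STAR 2.7.1a, and normalized the counts with DESeq2 1.30.1 (RSEM is also named in the submitters' processing notes). The signal values deposited are read counts scaled by a size factor for each mouse. All values (100%) were whole multiples of 1 read within a tolerance of 0.01 reads, from which reads were recovered.

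A gene was kept if 4 or more of the 19 mice reached 10 normalized counts (14845 of 20408 genes). Log2(value + 1) was fitted by limma 3.58.1 under R 4.3.3, using eBayes moderation that follows the mean-variance trend, with 1 mean for each of the 4 groups over all 19 mice. Tests were two-sided. Alternatives used edgeR 4.0.16 and DESeq2 1.42.0 on recovered reads. Reads from 11382573 to 19539387 per mouse set the precision of genes with few reads, counting error only.

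Genes were named as the 15 largest rises and 15 largest falls among called genes without overlap between groups and with a group mean of 50 or more, up to 4 called members of each list in a direction (2 members with the highest mean where fewer were called), and Ikbkb, Myh11, Tagln, Atg5, Vcam1, Ccn2 and Klf4. Other members are named after their values were seen. The members and lists were chosen with earlier results of these data known. Of 10 motifs searched in promoters, 2 are described. Replicates are separate mice.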

Additional observations from a re-analysis of the deposited data

Results flagged for a closer look

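In 21 of 308 group values (154 named genes in both groups of IKKβ-/- mice, 6.82%) a mouse lay apart from the rest of its group, by the share of the group's range that separated it from its nearest neighbour. Chance gives about 1 in 20 where values vary continuously. Where all other mice of a group stood at 0, as for Adtrp, Plin5, Klb and Ccnb1, the share is 1 whatever the value. No explanation was tested.

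In the saline group X2406 was the mouse set apart most often. It was lowest for Hspa1a (733.2 normalized counts against 7445 in the nearest mouse, share 0.889), Dnajb1 (463 against 2319, 0.834), Abra (353.1 against 1484, 0.933), Mt2 (118.9 against 295, 0.850) and Agpat2 (158.5 against 205.4, 0.834). It was highest for Per3 (1616 against 887.9, 0.936) and Mbp (369.3 against 175.7, 0.855). X2403 was highest for Fabp4 (3761 against 1104, 0.888), Ciita (52.67 against 34.74, 0.832), Adtrp (5.267 against 0, 1) and Plin5 (3.16 against 0, 1). X2409 was highest for Klb (2.177 against 0, 1), and X2401 lowest for Letmd1 (200.7 against 275, 0.930).

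In the Ang II group X2380 was lowest for Mmp3 (1209 against 3305, 0.752) and Gsn (14400 against 47890, 0.746), and highest for Acta1 (127.5 against 33.72, 0.891), Krt18 (342.9 against 104.1, 0.724) and Ccnb1 (4.621 against 0, 1). X2386 was highest for Mbp (939.6 against 395.5, 0.781), X2384 highest for Atp5b (7739 against 6613, 0.863) and X2383 lowest for Klf4 (985.8 against 1414, 0.768).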

How the results depend on the processing

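The 785 genes called in IKKβ-/- mice became 295 with those mice alone in the fit, 412 at an adjusted p under 0.05, 20 with the adipocyte score as a covariate, 24 with the clock score as a covariate and 271 without X2384 and X2385 together (the last was chosen after seeing the data). Leaving out 1 mouse at a time gave 435 to 1082 genes. For the difference between genotypes limma called 0, edgeR 3, DESeq2 279 and limma with array quality weights 76, and leaving out 1 mouse gave 0 to 79. The deficit of Ikbkb stayed between 21.9% and 26.3%. The 102 called genes that are named were followed through a part of these alternatives. These were another pseudocount, another scaling, edgeR, DESeq2, each IKKβ-/- mouse left out, the adipocyte score, and X2384 and X2385 left out together. Under all of these 98 kept their direction and 6 were called, and 96 were lost under at least 1. The clock score, the array quality weights and the IKKβ-/- mice alone in the fit were not among them. With the adipocyte score the log2 fold change turned to -0.14 for Plin1, -0.153 for Dusp4, -0.153 for Fabp4, -0.102 for Scd1 and 0.196 for Myh11. Myh11 was also at 0.134 without X2384 and X2385, Atg5 ranged from -0.00191 (without X2403) to 0.158 and Tagln from -0.0247 (without X2380) to 0.119 with 1 mouse left out. The cause was not tested. No paired analysis was possible because the groups share no replicate numbers. Low reads limit Klb, Ccnb1, Cenpf and Alb.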
